A study of Mus musculus with 12 samples.

Results

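The transcripts described here are those of the E2F transcription factors and the retinoblastoma proteins in mouse thymocytes. Members were all probe sets of the array whose single annotated symbol was E2f1 to E2f8, Rb1 or Rbl1. This rule gave 22 of 45101 probe sets, for 10 genes, and used no measured value. The list of genes itself was chosen with earlier results of these data known. A filter on dim signals kept 20 of the 22 probe sets and all 10 genes; the probe sets left out were 1444319_at (E2f8) and 1454293_at (Rbl1), which lay below the filter on all 12 arrays.

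The cells were double negative (DN) thymocytes, which carry neither CD4 nor CD8, from female C57BL/6 mice aged 5 to 6 weeks. Magnetic columns removed CD4+ and CD8+ cells, and the sort gate excluded lineage-positive cells, those labelled with antibodies to CD3, CD4, CD8, the natural killer marker NK1.1 or the gamma-delta receptor. DN2 cells were then sorted as CD44+CD25+, DN3 cells as CD44-CD25+ and DN4 cells as CD44-CD25-. Thymuses of 4 mice were pooled for each of 4 sorts (16 mice), and each sort yielded a DN2, a DN3 and a DN4 sample. RNA of each sample was hybridised to 1 Affymetrix Mouse Genome 430 2.0 array, 12 in all, in 3 groups of 4.

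E2F factors bind the promoters of genes for DNA replication and mitosis. Most of them pair with a DP protein, and the retinoblastoma proteins RB (Rb1), p107 (Rbl1) and p130 (Rbl2) bind these pairs and hold their targets silent until cyclin-dependent kinases phosphorylate them. E2F1, E2F2 and E2F3 are known as activators, E2F4, E2F5 and E2F6 as repressors, and E2F7 and E2F8 as atypical repressors that bind DNA without a DP protein. In the thymus, DN3 cells that pass selection for a functional T cell receptor beta chain divide rapidly as they become DN4 cells.

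Several E2F genes carry E2F sites in their own promoters, so RefSeq promoter windows of GRCm38.p6 were searched, each from 250 bases before to 50 bases after an annotated start. Of the 10 genes, 7 had a window, 9 windows in all, and whether a start is the main one of its gene was not tested. The words TTTCCCGC, TTTCGCGC, TTTGCCGC and TTTGGCGC, read on both strands, occurred in 4 of these 9 windows and in 744 of 32851 windows of all genes (2.26%). The sequences that hold a match are shown with the match in capitals, 5′ to 3′ on the strand of the gene. In E2f3, E2f7 and Rbl1 the match lay before the start, 11, 198 and 18 bases upstream in that order, and the 250 bases before the start are given. In E2f2 it began 40 bases after the start, and only the site and its flanks are given. The windows of E2f1, E2f6 and E2f8 held no match, but sites at other starts or outside the windows were not searched. The E2f1 window appears to hold coding sequence of the gene, so it does not show whether the E2f1 promoter has a match.
E2f2, chr4:136172303-136172323, + strand: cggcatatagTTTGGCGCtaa
E2f3, chr13:29986064-29986313, - strand: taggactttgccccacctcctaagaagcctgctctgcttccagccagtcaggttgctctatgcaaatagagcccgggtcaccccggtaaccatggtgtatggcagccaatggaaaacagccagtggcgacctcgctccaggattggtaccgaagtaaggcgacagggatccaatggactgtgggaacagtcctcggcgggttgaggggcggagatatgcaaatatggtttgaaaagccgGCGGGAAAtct
E2f7, chr10:110745189-110745438, + strand: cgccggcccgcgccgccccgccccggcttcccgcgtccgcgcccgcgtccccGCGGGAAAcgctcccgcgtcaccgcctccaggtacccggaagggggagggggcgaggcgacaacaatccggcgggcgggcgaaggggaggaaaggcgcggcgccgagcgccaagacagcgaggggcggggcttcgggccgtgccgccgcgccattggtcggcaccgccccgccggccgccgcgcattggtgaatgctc
Rbl1, chr2:157204535-157204784, - strand: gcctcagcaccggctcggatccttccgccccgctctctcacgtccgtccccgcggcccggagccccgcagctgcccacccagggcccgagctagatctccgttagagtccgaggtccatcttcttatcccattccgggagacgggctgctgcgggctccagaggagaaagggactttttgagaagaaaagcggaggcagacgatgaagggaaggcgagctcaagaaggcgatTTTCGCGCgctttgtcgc
The word TTTGAA, known as the CHR element of cell cycle genes, was also searched on both strands, and its matches here do not overlap the E2F matches. It occurred in 3 of the 9 windows, of E2f2, E2f3 and E2f8, and in 17.9% of all windows. In E2f2 it lay in another window than the E2F match, one that begins at chr4:136180532. That window lies downstream of the other on the + strand and appears to hold coding sequence, so it may not be a promoter. In E2f3 the word lay in the sequence shown.

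The arrays differed in brightness. Median deposited signals ranged from 15.2 to 28.1, and medians on the log2 scale averaged 0.41 lower in DN4 than in DN3 (exact two-sided permutation test of 4 against 4 arrays, p = 0.0286, the smallest this design allows, and 0.257 after adjustment over 9 tests). Signals were therefore compared after quantile normalization, and a value is either that signal or log2(signal + 5.57), a scale on which differences of dim genes are understated. The sort markers followed the gates: Cd44 differed by -3.69 ± 0.32 in DN3 against DN2 and Il2ra, which encodes CD25, by -3.56 ± 0.22 in DN4 against DN3 (log2 difference ± SE, limma adjusted p of 1.79e-05 and 2.42e-06). Cd4 was below the filter on all 12 arrays, whereas Cd8a was 2.32 ± 0.36 higher in DN4 than in DN3 (limma adjusted p = 0.00147). Markers of other cells also moved with stage. The summed signal of the 7 myeloid and mast cell markers, with Itgam, Mcpt4 and Ms4a2 below the filter on all arrays, was 2978 to 4026 in DN2, 164 to 328 in DN3 and 88.9 to 159 in DN4. That of 4 natural killer cell markers, with Klrk1 and Ncr1 below the filter, was 1570 to 1817, 383 to 710 and 80.3 to 106 in the same order. The 5 dendritic cell markers summed to 308 to 689, 169 to 305 and 235 to 855, the 4 B cell markers, with Ebf1 below the filter, to 183 to 247, 165 to 212 and 128 to 196, and the 2 erythroid markers to 5.85 to 16.7, 9.91 to 24.8 and 19.5 to 85.7. Such sums follow the brightest genes of a list and hide those that went the other way. In DN4 against DN3, log2 differences were -1.71 to 0.14 for the 3 myeloid and mast cell genes tested and -2.84 to 0.26 for 2 natural killer genes. They were -0.58 to 1.54 for 4 dendritic cell genes and -0.39 to 1.30 for 2 B cell genes. The part of these markers in the differences described next was not tested.

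The main fit, after quantile normalization, called no E2F or retinoblastoma gene between DN3 and DN2, and its calls were rises in DN4. In DN3 against DN2, 0 of 10 genes were called at an adjusted p under 0.05 by limma, where 11% of the 11242 genes tested were called. A count of 0 of 10 is close to that share and does not show that differences are absent. Of the 10, 1 gene, E2f7, had an unadjusted p under 0.05. After quantile normalization 5 of 10 genes rose in DN4 against DN3 (E2f1, E2f2, E2f4, E2f7 and Rb1) and 0 fell, where 7.09% of all genes tested rose and 8.88% fell. In DN4 against DN2, 3 of 10 rose (E2f2, E2f4 and Rb1) and 0 fell, where 17.8% rose and 16.5% fell. The median log2 difference of the 10 genes was -0.03 in DN3 against DN2, 0.61 in DN4 against DN3 and 0.41 in DN4 against DN2, beside 0.02, 0.05 and 0.06 over all genes tested. The 2 groups did not overlap for 5 of 10 genes in DN4 against DN3 and for 3 of 10 in DN4 against DN2, all higher in DN4, where 12.5% and 17% of all genes tested were higher without overlap. Both comparisons with DN4 share the DN4 arrays. In bulk samples, a change in the share of cycling cells and a change in RNA per cell cannot be told apart.

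Per the labels, arrays of the same sort number come from the same pool of mice, and a fit with the sort as a block called more members. It called 1 of 10 in DN3 against DN2 (E2f7, lower, where 10.7% of all genes were lower), 6 in DN4 against DN3 (E2f8 added, where 15.2% were higher) and 6 in DN4 against DN2 (E2f1, E2f6 and E2f8 added, where 24.7% were higher). The scaling of the arrays decided the calls of DN4 against DN3. With arrays centred on their medians, 0 of the 10 members were called, and 253 genes rose and 1486 fell over the whole table, against 797 and 998 after quantile normalization. Without any normalization between arrays, again 0 were called, while 40 genes rose and 2839 fell.

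The median of all genes tested in DN4 against DN3 was -0.41 without normalization and -0.09 with median centring, beside 0.05 after quantile normalization. Relative to that median, E2f1 stood at 0.55 with median centring and at 0.63 after quantile normalization, E2f2 at 0.63 and 0.64, E2f4 at 0.62 and 0.74, E2f7 at 0.52 and 0.62, and Rb1 at 0.52 and 0.51. Values relative to the median without normalization are nearly those of median centring by construction, since centring moves each array by a constant. With median centring the adjusted p of these 5 genes, which are the ones called after quantile normalization, was 0.0713 to 0.154. For DN4 against DN2, median centring called 3 members, as many as quantile normalization, and no normalization called 0. Over all genes, 1550 rose and 2039 fell there with median centring and 287 and 2745 without normalization, against 1997 and 1859 after quantile normalization.

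**Figure D1:**
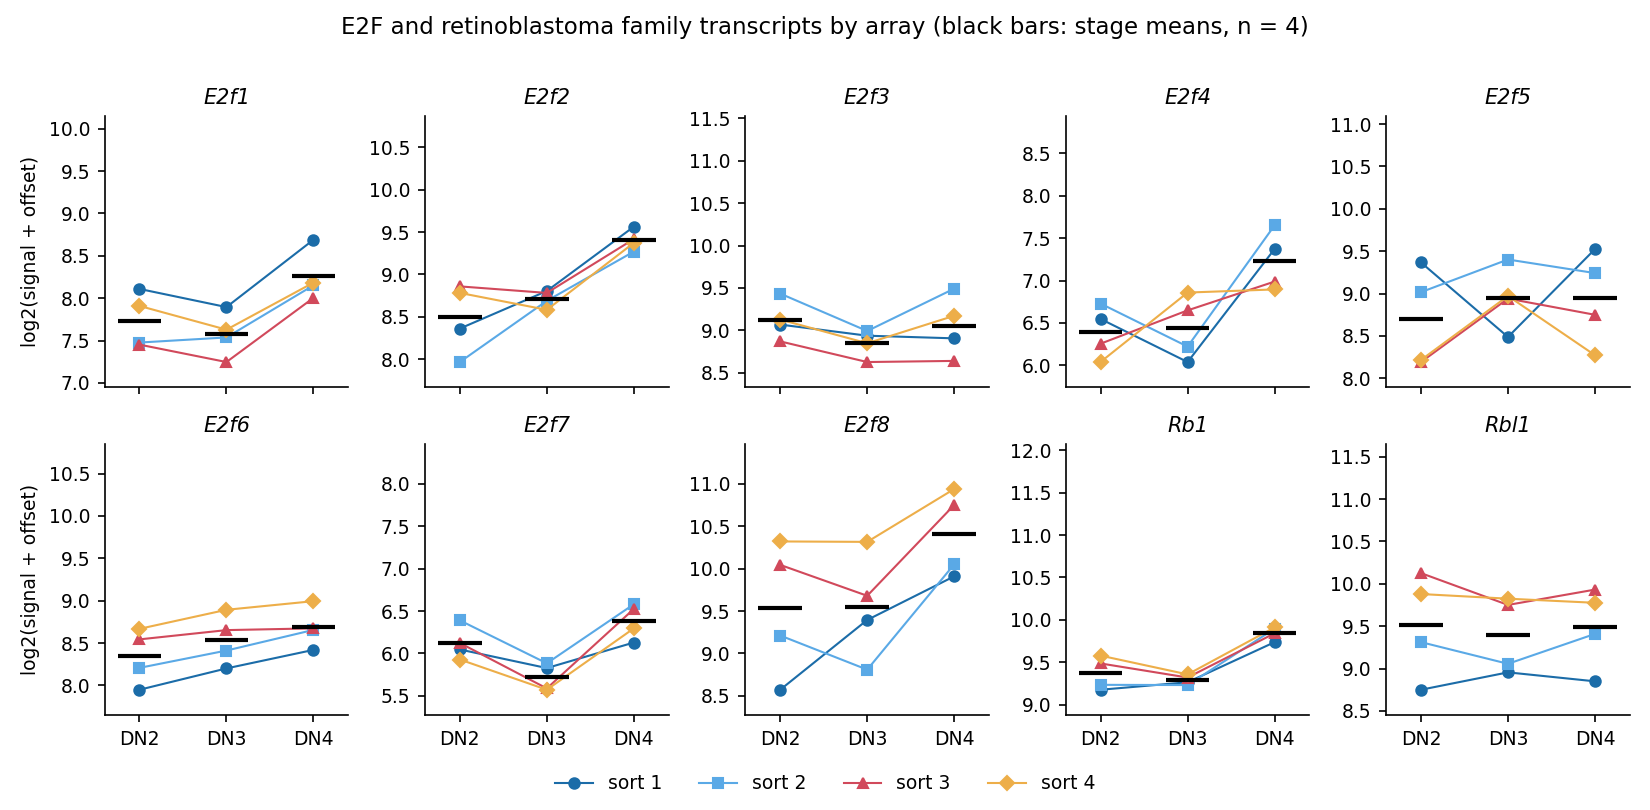
Levels of the 10 genes on each array, each gene by its brightest probe set. The vertical axis is log2(signal + 5.57) after quantile normalization, every panel spans the same log2 range, lines join the 4 sorts and black bars are stage means (n = 4). DN4 points lie above all DN3 points for E2f1, E2f2, E2f4, E2f7 and Rb1, and the sorts stay apart at every stage for E2f8 and Rbl1.

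**Figure D2:**
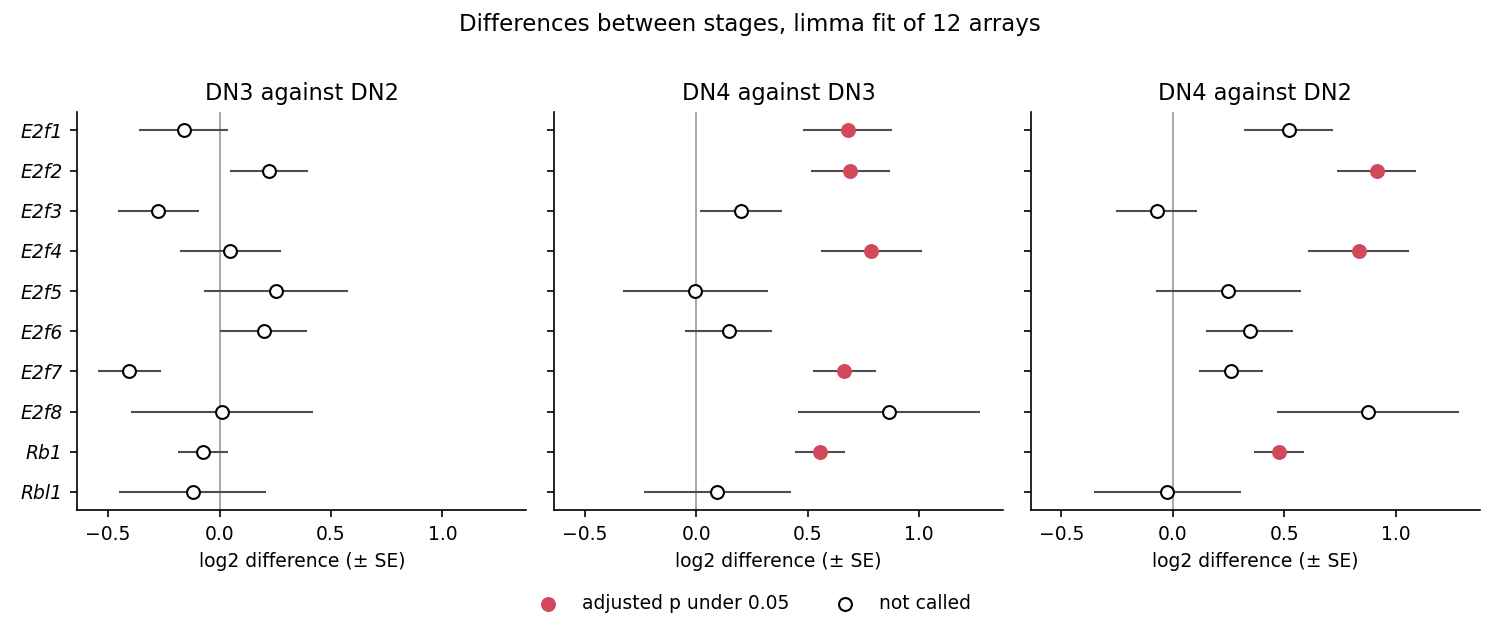
Log2 differences ± SE of the 10 genes in the 3 comparisons, from the limma fit of 12 arrays after quantile normalization. Filled points have an adjusted p under 0.05; these are 0 genes in DN3 against DN2, 5 in DN4 against DN3 and 3 in DN4 against DN2.

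Of the activators, E2f1 and E2f2 rose at the step from DN3 to DN4 and E2f3 was not called. E2f1, which drives S phase entry and can also promote cell death, had signals of 271, 173, 169.5 and 235 in DN2, 232, 180.1, 146 and 192 in DN3, and 407, 279, 251 and 285 in DN4 (sorts 1 to 4). The 4 DN4 arrays lay above all DN3 arrays and overlapped those of DN2, where sort 1 was highest. E2f1 was 0.68 ± 0.20 higher in DN4 than in DN3 on the log2 scale, or 1.60-fold, and was higher in 4 of 4 sorts (limma adjusted p = 0.0376). DN4 against DN2 gave 0.52 ± 0.20 (limma adjusted p = 0.0620, or 0.00174 with sort as a block), and DN3 against DN2 gave -0.16 ± 0.20.

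The call of E2f1 in DN4 against DN3 was lost when DN3 array 2, 3 or 4, or DN4 array 1, 2 or 4, was left out (adjusted p of 0.0587 to 0.103, differences of 0.54 to 0.71). Its second probe set, 1431875_a_at, differed by 0.50 ± 0.23 in DN4 against DN3 without overlap of the groups, and its adjusted p over all probe sets tested was 0.176. The third, 1447840_x_at, was near the filter on every array (signals of 14.4 to 41.8) and gave -0.29 ± 0.23. Averaged over its 3 probe sets, E2f1 differed by 0.30 and was not called (adjusted p = 0.205).

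E2f2, an activator whose loss in mice is known to disturb T cell proliferation, rose on both of its probe sets. The brighter, 1436434_at, had signals of 323, 245, 459 and 435 in DN2, 442, 407, 435 and 378 in DN3, and 751, 612, 678 and 657 in DN4. The dimmer, 1455790_at, had 159, 151, 223 and 201 in DN2, 176, 130.3, 131 and 185 in DN3, and 412, 418, 370.0 and 405 in DN4. On both, every DN4 array lay above every array of the other stages, and DN2 and DN3 overlapped.

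E2f2 differed by 0.69 ± 0.18 in DN4 against DN3 on the brighter probe set (limma adjusted p = 0.0208) and by 0.91 ± 0.18 in DN4 against DN2 (limma adjusted p = 0.00192). On the dimmer one the difference in DN4 against DN3 was 1.35 ± 0.16, or 2.55-fold (limma adjusted p over probe sets = 3.35e-04), and in DN4 against DN2 1.12 ± 0.16 (limma adjusted p over probe sets = 2.96e-04). DN3 against DN2 gave 0.22 ± 0.18 and -0.23 ± 0.16 on the 2 probe sets, and neither was called. The DN4 against DN3 call of the brighter probe set was lost without DN3 array 2 (adjusted p = 0.0522) or DN4 array 1 (adjusted p = 0.0533), where the differences were 0.69 and 0.64. A fit of sorts 1 and 2 alone gave 0.67 and did not call it either (limma adjusted p = 0.112).

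E2f3, the third activator, differed between its probe sets. The brighter, 1434564_at, had signals of 531, 686, 462 and 553 in DN2, 484, 503, 389 and 455 in DN3, and 474, 714, 393 and 571 in DN4, and all 3 stages overlapped. Its differences were 0.20 ± 0.18 in DN4 against DN3 and -0.07 ± 0.18 in DN4 against DN2 (limma adjusted p of 0.484 and 0.789). The dimmer, 1427462_at, had 37.5, 41.6, 49.5 and 46.3 in DN2, 43.9, 40.5, 67.3 and 57.8 in DN3, and 89.9, 62.2, 81.3 and 80.1 in DN4. On it the DN4 arrays lay above all DN2 arrays and only sort 2 of DN4 fell within the DN3 range. It was 0.76 ± 0.17 higher in DN4 than in DN2 (limma adjusted p over probe sets = 0.00507) and gave 0.55 ± 0.17 in DN4 against DN3 (limma adjusted p over probe sets = 0.0523). With the mean of both, E2f3 was 0.35 higher in DN4 than in DN2 (adjusted p = 0.0224).

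Of the repressors E2f4 to E2f6, E2f4 rose in DN4. E2f4, which with p107 and p130 silences cell cycle genes in resting cells, had signals of 87.9, 100.5, 70.8 and 60.2 in DN2, 60.2, 69.1, 94.8 and 110.5 in DN3, and 160.2, 196, 121 and 114 in DN4. Every DN4 array lay above every array of DN2 and DN3, but sorts 3 and 4 of DN4 stood close to sorts 3 and 4 of DN3. E2f4 was 0.83 ± 0.23 higher in DN4 than in DN2, by 0.73 to 0.92 in the 4 sorts (limma adjusted p = 0.0135). Without the 3 arrays of lowest mean signal this difference was 0.66 and was not called (limma adjusted p = 0.0898). Against DN3, E2f4 was 0.79 ± 0.23 higher (limma adjusted p = 0.0352), by 1.33, 1.43, 0.34 and 0.04 in sorts 1 to 4.

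The difference of E2f4 from DN3 was largest in sorts 1 and 2. A fit of sorts 3 and 4 alone gave 0.19 (adjusted p = 0.426), and the call was also lost without DN3 array 1 or 2 or DN4 array 1 or 2 (adjusted p of 0.0792 to 0.0951, differences of 0.64 to 0.74). With the sort as a block and the 3′/5′ ratio of Gapdh, a measure of RNA integrity, as a covariate, the difference was 0.50 (adjusted p = 0.0767). The log2 3′/5′ ratio of Gapdh averaged 1.16 ± 0.21 in DN4 and 1.04 ± 0.17 in DN3 (SD, n = 4 each; exact two-sided permutation p = 0.429). In DN2 the ratio averaged 1.39 ± 0.32 (SD, n = 4; exact two-sided permutation p = 0.114 for DN3 against DN2).

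E2f5, a repressor that pairs mainly with p130, had its brightest probe set 1447625_at at 655, 512, 287 and 292 in DN2, 353, 671, 486 and 496 in DN3, and 731, 599.9, 425 and 304 in DN4. The stages overlapped throughout, and sorts 3 and 4 lay below sorts 1 and 2 in DN2 and DN4. Its difference was -0.00 ± 0.32 in DN4 against DN3 and 0.25 ± 0.32 in DN4 against DN2 (limma adjusted p of 0.996 and 0.586). The 2 dimmer probe sets, 1460207_s_at and 1417444_at, were higher in every DN3 array than in any DN2 array, by 0.24 ± 0.14 and 0.53 ± 0.16, and neither was called (limma adjusted p over probe sets of 0.353 and 0.0632). Over all 20511 probe sets tested, 7.75% were likewise higher in DN3 than in DN2 without overlap. In DN4 against DN3 the same probe sets gave -0.32 ± 0.14 and -0.16 ± 0.16 (limma adjusted p over probe sets of 0.160 and 0.536).

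E2f6, a repressor that lacks the pocket protein binding part and works with Polycomb proteins, differed between its probe sets. On the brighter, 1448835_at, signals were 241, 289.9, 367 and 401 in DN2, 289, 335, 397 and 469 in DN3, and 337, 397, 403 and 504 in DN4. Each sort was higher in DN3 than in DN2 and higher in DN4 than in DN3, but the stages overlapped because sorts 3 and 4 lay above sorts 1 and 2 at every stage. DN4 against DN2 gave 0.34 ± 0.20 (limma adjusted p = 0.195, or 0.00762 with sort as a block). On the dimmer, 1437914_at, signals were 146, 185, 129 and 147 in DN2, 146, 142, 119 and 146 in DN3, and 224, 213, 175 and 221 in DN4. Every DN4 array lay above every DN3 array, and the probe set was 0.57 ± 0.14 higher in DN4 than in DN3 and 0.45 ± 0.14 higher than in DN2 (limma adjusted p over probe sets of 0.0202 and 0.0283).

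Of the atypical repressors, E2f7 rose at the step from DN3 to DN4. E2f7 and E2f8 are themselves E2F targets and repress E2F1 and other G1/S genes late in S phase. E2f7 had signals of 60.5, 78.3, 64.1 and 55.3 in DN2, 51.2, 53.4, 42.5 and 42.0 in DN3, and 64.4, 90.1, 86.5 and 73.0 in DN4. All DN3 arrays lay below all arrays of the other stages, while DN4 and DN2 overlapped. E2f7 was 0.67 ± 0.14 higher in DN4 than in DN3, in 4 of 4 sorts (limma adjusted p = 0.00865), and this call was kept when any single array was left out (adjusted p of 0.00692 to 0.0292). In a fit of sorts 1 and 2 alone the difference was 0.49 and was not called (limma adjusted p = 0.214). DN3 against DN2 gave -0.40 ± 0.14, lower in 4 of 4 sorts (limma adjusted p = 0.0942, or 0.0266 with sort as a block). That call was lost when the Gapdh 3′/5′ ratio was added to the block. Over all genes tested, 9.28% were lower in DN3 than in DN2 without overlap.

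E2f8, on the probe set 1436186_at, had signals of 375, 587, 1051 and 1274 in DN2, 668, 443, 815 and 1269.6 in DN3, and 956, 1056, 1719 and 1959.6 in DN4. The stages overlapped, because sorts 3 and 4 were above sorts 1 and 2 at each stage, yet each sort was highest in DN4. The difference was 0.86 ± 0.41 in DN4 against DN3 and 0.88 ± 0.41 in DN4 against DN2 (limma adjusted p of 0.172 and 0.118). With the sort as a block both were called (limma adjusted p of 0.0114 and 0.00584), with differences of 0.51 to 1.24 and of 0.62 to 1.34 in the 4 sorts. With the Gapdh 3′/5′ ratio added to the block, DN4 against DN3 was still called (limma adjusted p = 0.0236) and DN4 against DN2 was not.

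Of the retinoblastoma genes, Rb1 rose in DN4 and Rbl1 was not called. Rb1, whose protein RB mainly binds the activator E2Fs, had signals of 572, 596, 711 and 758 in DN2, 609, 595, 633 and 649.6 in DN3, and 847, 947, 911 and 956 in DN4. The DN4 arrays lay above all others, and DN2 and DN3 overlapped. Rb1 was 0.55 ± 0.11 higher in DN4 than in DN3, by 0.47 to 0.66 in the 4 sorts (limma adjusted p = 0.00664), and 0.48 ± 0.11 higher than in DN2 (limma adjusted p = 0.00617). Both calls were kept without any single array. Averaged over both probe sets, Rb1 differed by 0.60 in DN4 against DN3 and was not called (limma adjusted p = 0.126). That comparison was also not called in sorts 1 and 2 or in sorts 3 and 4 alone (limma adjusted p of 0.0915 and 0.0522, differences of 0.56 and 0.55). DN4 against DN2 was not called in sorts 3 and 4 alone or without the 3 arrays of lowest mean signal (limma adjusted p of 0.0669 and 0.0556). The dim second probe set of Rb1, 1444400_at, gave 0.64 ± 0.45 in DN4 against DN3 and 1.33 ± 0.45 in DN4 against DN2 (limma adjusted p over probe sets of 0.388 and 0.0435), with a signal of 1.73 on DN2 array 2.

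Rbl1, which encodes p107, is itself an E2F target and binds the repressor E2Fs. Its brightest probe set, 1424156_at, had signals of 425, 629.8, 1112 and 936 in DN2, 491, 527, 856 and 901 in DN3, and 456, 674, 971 and 871 in DN4. The stages overlapped and sorts 3 and 4 were again the high ones. The difference was 0.09 ± 0.33 in DN4 against DN3 and -0.03 ± 0.33 in DN4 against DN2 (limma adjusted p of 0.874 and 0.962). On 1425166_at, DN4 against DN3 gave 0.31 ± 0.22, higher in 4 of 4 sorts, and was not called (limma adjusted p over probe sets = 0.397). The dimmest one tested, 1432604_at, gave 0.34 ± 0.29 and was not called either (limma adjusted p over probe sets = 0.480). Rbl2, the related gene for p130, was not a member; it gave 0.14 ± 0.18 in DN4 against DN3 (limma adjusted p = 0.643).

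**Figure D3:**
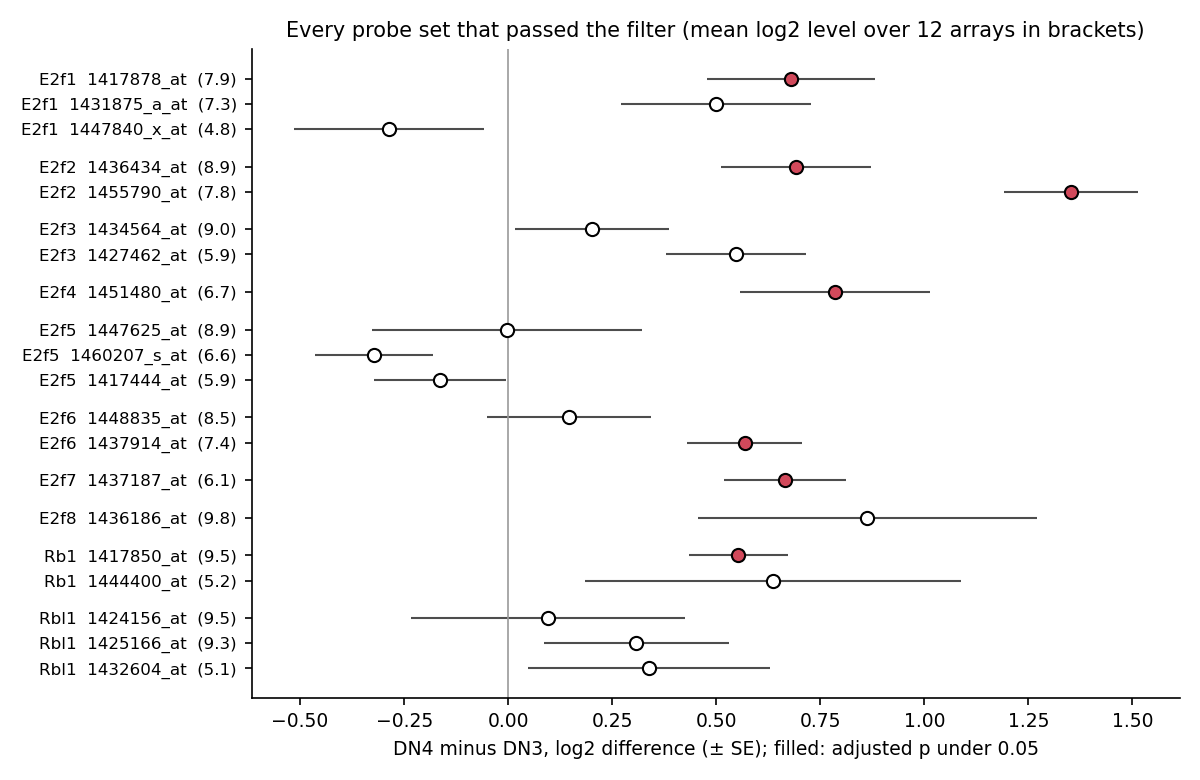
Log2 difference ± SE of DN4 minus DN3 for each of the 20 probe sets that passed the filter, with its mean log2 level over 12 arrays in brackets. Filled points have an adjusted p under 0.05 over all probe sets tested; both probe sets of E2f2 are filled, and 1 each of E2f1, E2f4, E2f6, E2f7 and Rb1.

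Tested one by one, 7 of the 20 probe sets were called in DN4 against DN3, all higher, where 5.11% of the 20511 probe sets tested were higher. In DN4 against DN2 there were 7, again all higher, where 15.9% were higher, and in DN3 against DN2 0, where 7.9% were called in either direction. For E2f1, E2f3, E2f6 and Rb1, a call in some comparison was made on 1 probe set and not on another. Which transcripts each probe set detects was not analysed here.

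Activator and repressor E2Fs were set side by side, by their mean log2 levels and with no test. Each gene entered by its brightest probe set, after quantile normalization. The mean log2 level of E2f1, E2f2 and E2f3 was 0.51, 0.57, 0.47 and 0.56 higher in DN4 than in DN3 in sorts 1 to 4, and that of E2f4 to E2f8 was 0.68, 0.69, 0.44 and 0.16 higher. The means were 0.52 ± 0.05 and 0.49 ± 0.25 (SD, n = 4 sorts). The means in DN4 against DN2 were 0.45 ± 0.19 for the activators and 0.51 ± 0.05 for the repressors, so which group varied more between sorts differed between the comparisons. Within the repressors in DN4 against DN3, E2f4 to E2f6 averaged 0.31 ± 0.47, with -0.19 in sort 4, and E2f7 and E2f8 averaged 0.76 ± 0.28. The activator mean minus the repressor mean changed by -0.17, -0.13, 0.03 and 0.40 in DN4 against DN3, with both signs among the sorts. Its mean change was 0.03 ± 0.26 in DN4 against DN3, -0.06 ± 0.16 in DN4 against DN2 and -0.09 ± 0.37 in DN3 against DN2. No p is given for these means, since the members were chosen with earlier results known. The rises depended on the scaling. In DN4 against DN3 the median difference of the activators was 0.68 after quantile normalization, 0.46 with median centring and 0.14 without normalization. In the same order it was 0.15, -0.05 and -0.37 for E2f4 to E2f6, and 0.76, 0.60 and 0.28 for E2f7 and E2f8.

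**Figure D4:**
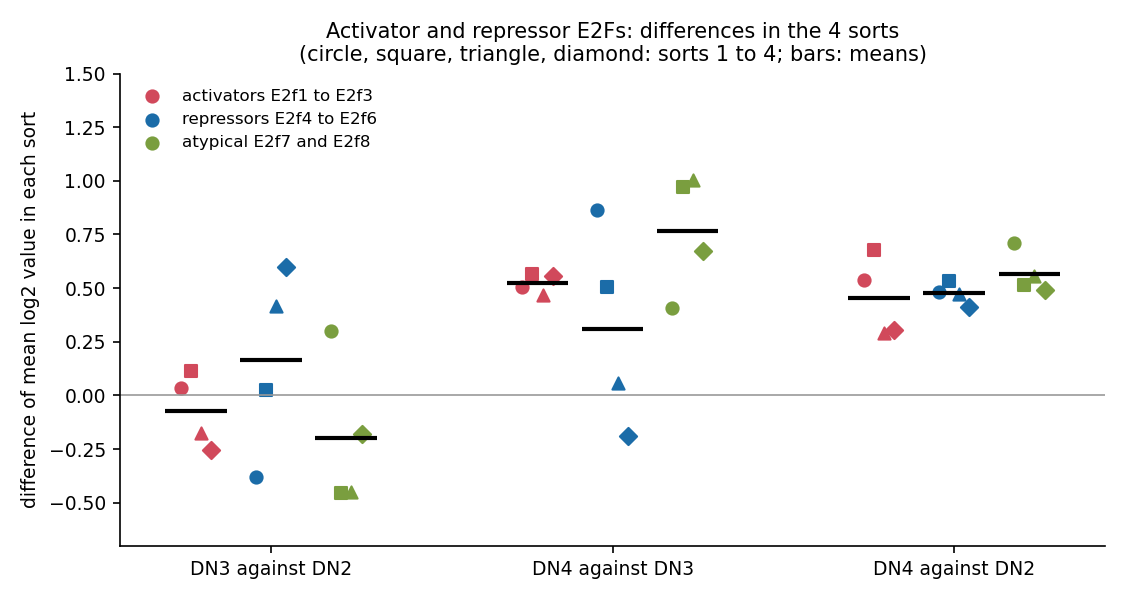
Differences between stages of the mean log2 level of activator, repressor and atypical E2Fs in each of the 4 sorts, with bars at the mean of the sorts. Levels are after quantile normalization, each gene by its brightest probe set. In DN4 against DN3 the activators lie between 0.47 and 0.57, and the repressors E2f4 to E2f6 between -0.19 and 0.86.

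Differences between sorts were as large as those between stages for some members. On the brightest probe sets of E2f8, Rbl1 and E2f6, both arrays of sorts 3 and 4 lay above both of sorts 1 and 2 in all 3 stages. Sorts 3 and 4 minus sorts 1 and 2 gave 1.29, 0.90 and 0.87 for E2f8 in DN2, DN3 and DN4, 0.97, 0.78 and 0.72 for Rbl1, and 0.53, 0.47 and 0.30 for E2f6. The other probe sets of Rbl1 and E2f6 showed no such separation: 1425166_at overlapped at every stage, as did 1437914_at, and on the dim 1432604_at sorts 3 and 4 lay below sorts 1 and 2 in DN2 and DN3 and overlapped them in DN4. For no probe set of E2f1, E2f2, E2f3, E2f4, E2f5, E2f7 or Rb1 were sorts 3 and 4 above sorts 1 and 2 in all 3 stages. The labels do not say how the sorts differed.

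Partners of the E2Fs changed in part. For this list and those that follow, 4.68% of all genes tested rose and 6.32% fell in DN3 against DN2 after quantile normalization. The shares were 7.09% and 8.88% in DN4 against DN3, and 17.8% and 16.5% in DN4 against DN2. In DN4 against DN2, a count of 1 or 2 in a list this short is close to those shares and is no result about the list. Of 9 dimer partner, pocket protein and DREAM complex genes tested, 2 rose and 0 fell in DN4 against DN3 (median 0.02). Mybl2, the B-Myb that joins the MuvB core in dividing cells, was 0.67 ± 0.17 higher (limma adjusted p = 0.0197), and Tfdp1, the main DP partner, 0.30 ± 0.09 higher (limma adjusted p = 0.0429). Tfdp2, the other DP partner, fell in DN3 against DN2 by 0.70 on the log2 scale (SE 0.16, limma adjusted p = 0.0161). Its signals were 952, 793, 654 and 663 in DN2, 555, 503, 444 and 374 in DN3, and 464, 417, 363 and 343 in DN4, and the DN2 arrays lay above all others. In DN4 against DN2, Mybl2 and Tfdp1 rose (0.78 ± 0.17 and 0.46 ± 0.09) and Tfdp2 fell (-0.93 ± 0.16), with limma adjusted p of 0.00398, 0.00244 and 0.00103. The rises in this list depended on the scaling. In DN4 against DN3, 0 of 9 rose and 0 fell with median centring (median -0.10), and 0 rose and 1 fell without normalization (median -0.42). For DN4 against DN2, 2 rose and 1 fell with median centring and 0 rose and 1 fell without normalization, where the fall in DN3 against DN2 was also not called.

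Of 7 genes of the E2F6 complex, 1 rose in DN3 against DN2 and 0 fell (median 0.35): L3mbtl2, a Polycomb-type chromatin protein, was 0.67 ± 0.15 higher (limma adjusted p = 0.0122). In DN4 against DN3, 0 rose and 1 fell (median -0.02), Mga, the scaffold of the complex, by 0.51 (SE 0.14, limma adjusted p = 0.0308). In DN4 against DN2, 2 rose, Pcgf6 by 0.52 ± 0.16 and Max by 0.60 ± 0.21 (limma adjusted p of 0.0265 and 0.0470), and 0 fell (median 0.40). Both rises were lost under the other scalings, where 0 rose and 1 fell with median centring and 0 rose and 1 fell without normalization. In DN4 against DN3, 0 rose and 1 fell with median centring, and 0 rose and 3 fell without normalization. For DN3 against DN2, 1 of 7 rose with median centring and 0 without normalization.

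Genes that act on the pocket proteins moved in both directions, in a balance that turned with the scaling. Of 8 cyclin and kinase genes, 4 rose and 2 fell in DN4 against DN3 after quantile normalization (median 0.39), 1 rose and 3 fell with median centring (median 0.38), and 0 rose and 3 fell without normalization (median 0.06). Cyclin E and its kinase rose: Ccne1 by 0.91 ± 0.16, Ccne2 by 1.10 ± 0.30 and Cdk2 by 0.71 ± 0.20 (limma adjusted p of 0.00263, 0.0289 and 0.0340). Ccne1 had signals of 859, 914, 917 and 851 in DN4, against 436, 360.4, 498 and 621 in DN3, without overlap. Among the D cyclins and their kinases, Ccnd3 rose by 0.53 ± 0.16 (limma adjusted p = 0.0475), whereas Ccnd2 fell by 1.45 on the log2 scale (SE 0.19) and Cdk6 by 0.71 (SE 0.13), with limma adjusted p of 5.79e-04 and 0.00413. Ccnd2 had signals of 627, 826, 1058 and 717 in DN4, against 2044, 2568, 2348 and 1784 in DN3. In DN4 against DN2, 2 rose (Ccne1 and Ccne2) and 2 fell (Ccnd2 and Cdk6), beside 3 and 2 with median centring and 0 and 2 without normalization. In DN3 against DN2 0 were called, where 1 had an unadjusted p under 0.05.

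Of 5 cyclin-dependent kinase inhibitor genes tested, 1 rose and 1 fell in DN4 against DN3 (median -0.13), as many as with median centring, while 0 rose and 2 fell without normalization. Cdkn1a, which encodes p21, had signals of 171, 291, 256 and 148 in DN4, against 877, 1559, 2012 and 1116 in DN3. It fell by 2.63 on the log2 scale (SE 0.36, limma adjusted p = 6.80e-04). Cdkn2c, which encodes the CDK4 and CDK6 inhibitor p18, was 0.65 ± 0.10 higher (limma adjusted p = 0.00177). Cdkn2d, which encodes p19, fell in DN3 against DN2 by 0.73 (SE 0.19, limma adjusted p = 0.0276), and 0 inhibitor genes were called there without normalization. Of 4 death genes linked to E2F1, 0 were called in any comparison, and 1 had an unadjusted p under 0.05, in DN4 against DN2.

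Among known targets, part of the genes rose in DN4 against DN3 and the calls depended on the scaling. Of 30 G1/S target genes tested, 15 rose, 0 fell and 15 were not called, where 7.09% of all genes tested rose, with a median of 0.47 beside 0.05 over all genes. The 4 with the smallest adjusted p were Gins2, Prim1, Cdc45 and Mcm10, all of the replication machinery. They were higher by 0.76 ± 0.11, 0.55 ± 0.12, 0.95 ± 0.21 and 0.80 ± 0.19 (limma adjusted p of 0.00128, 0.00901, 0.0106 and 0.0162). Gins2 had signals of 984, 1017, 939.9 and 1012 in DN4, against 642, 529.8, 513 and 658 in DN3, without overlap. Of 24 G2/M genes repressed by the DREAM complex, 15 rose, 0 fell and 9 were not called, with a median of 0.64. With median centring 8 of 30 and 3 of 24 rose, where 2.26% of all genes tested rose, and without normalization 0 of 30 and 0 of 24. The leading ones were the cyclin genes Ccnb2 and Ccna2, the mitotic kinase gene Cdk1 and the kinetochore gene Cenpf. They were higher by 0.88 ± 0.16, 0.70 ± 0.15, 0.72 ± 0.18 and 0.57 ± 0.15 (limma adjusted p of 0.00336, 0.00860, 0.0184 and 0.0237).

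In DN4 against DN2, 15 of 30 G1/S genes rose (median 0.41), led by Gins2, Slbp, Uhrf1 and Rrm2, and 19 of 24 G2/M genes rose (median 0.75), led by Ube2c, Bub1, Ccna2 and Kif20a. Over all genes tested, 17.8% rose there. In DN3 against DN2, 0 of 30 G1/S genes were called (median -0.08), where 4 had an unadjusted p under 0.05, and 1 of 24 G2/M genes fell, Ccnb2 by 0.53 (SE 0.16, limma adjusted p = 0.0493), where 0 were called with median centring or without normalization. With the sort as a block, 23 of 30 and 21 of 24 rose in DN4 against DN3, where 15.2% of all genes tested rose. Without the 3 arrays of lowest mean signal (DN2 array 2, DN4 arrays 1 and 2) the counts were 4 of 30 and 3 of 24, where 290 of 10762 genes rose. For DN4 against DN2, 15 of 30 and 16 of 24 rose with median centring, where 13.9% of all genes did. Without normalization 0 of 30 and 2 of 24 rose there, where 287 of 11203 genes did. Every G1/S and G2/M gene was higher in DN4 than in DN3 after quantile normalization and after median centring, and 23 of 30 and 23 of 24 were without normalization.

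**Figure D5:**
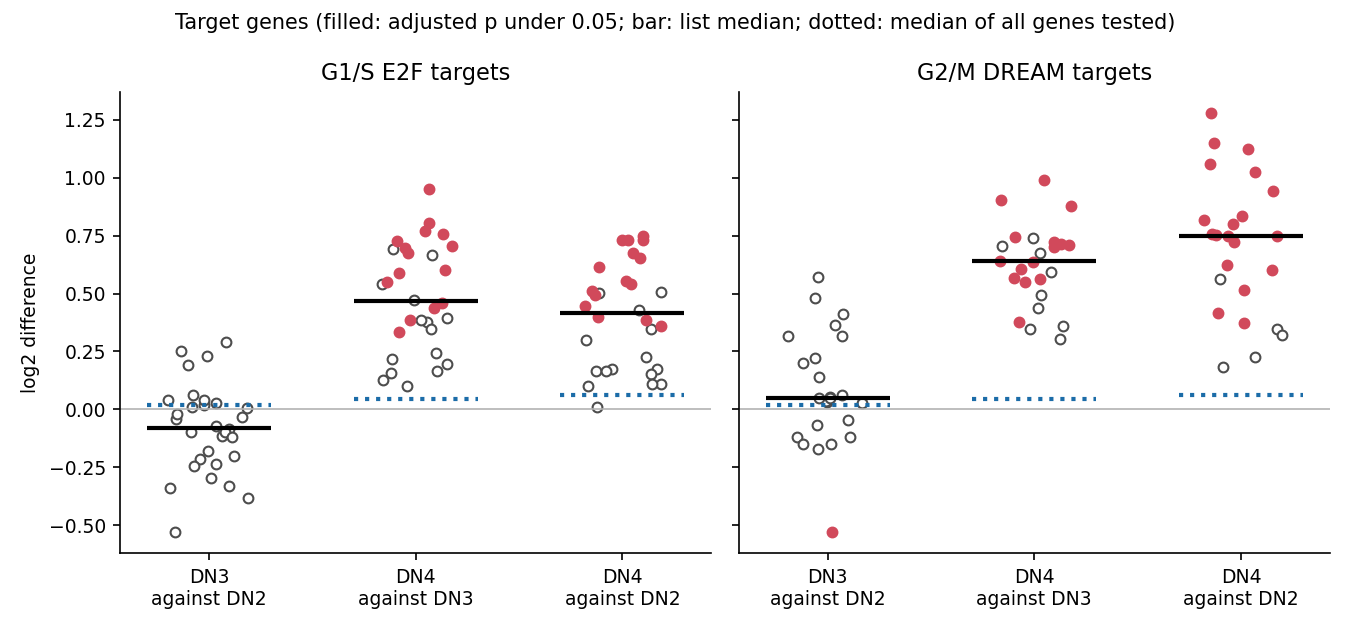
Log2 differences of G1/S E2F targets (left) and G2/M DREAM targets (right) in the 3 comparisons after quantile normalization. Each point is a gene, filled where its adjusted p is under 0.05; bars are list medians and dotted lines the median of all genes tested. In DN4 against DN3 all points lie above 0, with medians of 0.47 and 0.64, whereas without normalization between arrays 23 of 30 and 23 of 24 were above 0, with medians of 0.15 and 0.21.

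The genes whose levels ran closest to each called member over the 12 arrays were found by the root mean square difference of log2 values, each gene centred on its own mean. For E2f1 these were Clspn (0.148), Ndc80 (0.151) and Nsl1 (0.152), a replication checkpoint gene and 2 kinetochore genes. For E2f2 they were Pik3r2 (0.141), Snrnp35 (0.141) and Mycbp (0.143), and for Rb1 Cmc2 (0.0832), Bnip3 (0.0910) and Galnt7 (0.107). E2f4 was followed less closely, by Ppil1 (0.221), Fance (0.237) and Lzic (0.240), and E2f7 by Flot2 (0.154), Got1l1 (0.166) and Egln3 (0.173). All of these levels come from the same 12 arrays, so shared array effects enter each distance.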

How the data were processed

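Per the labels' protocols, RNA of each sorted sample was amplified and hybridised to 1 array. The deposited table holds an intensity for each probe set on a linear scale. The submitters' processing notes name Affymetrix GCOS as the software; which version, algorithm and scaling target were used is not given in the sources used here, and the files name no genome build. Of 45101 probe sets, 34958 had 1 gene symbol and were used, with symbols updated through Entrez identifiers to RefSeq of GRCm38.p6 for 34754 of them. Each gene was followed by whichever of its probe sets had the highest mean.

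Signals were quantile normalized, and the deposited table's 25th percentile (5.57) was added before log2. Genes above the table-wide median (signal 20.1) on at least 4 arrays were kept, which left 11242. limma 3.58.1 (R 4.3.3) fitted the 3 group means to the 12 arrays, two-sided, with Benjamini-Hochberg adjustment over all genes tested and a threshold of 0.05. The fit was tested on simulated data. Array measures were compared by exact permutation tests. The number of arrays limits the precision. Figures were drawn with matplotlib 3.10.9 and Python 3.11.15.

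Groups and sort numbers come from the sample labels, which say that same-numbered samples share a source of cells. As a check, each array's deviations from its stage mean were correlated with those of arrays of other stages: r was 0.246 to 0.336 within a sort and at most 0.106 between sorts. One alternative fit had the sort as a block. The others were that block with the Gapdh 3′/5′ ratio, median centring, no normalization, other offsets, filters and probe set rules, eBayes settings, subsets of sorts and leaving out arrays. The members and gene lists were chosen with earlier results of these data known. All members are named, with up to 4 called genes of each list by smallest adjusted p in each comparison and the 3 nearest genes of each called member; not all of these are printed.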

Additional observations from a re-analysis of the deposited data

Results flagged for a closer look

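Over the 20 probe sets that passed the filter and the 3 stages, 60 groups of 4 arrays were examined for a single array that stood apart, by Dixon's ratio of the gap to the range at its 95% critical value. The ratio was exceeded in 2 of 60 groups, where chance flags about 5% of groups. For E2f5, on probe set 1460207_s_at, sort 1 was the lowest of the DN2 arrays with a signal of 73.6 (ratio 0.879). For E2f6, on probe set 1437914_at, sort 3 was the lowest of the DN3 arrays with a signal of 119 (ratio 0.859). Neither probe set is the brightest of its gene.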

How the results depend on the processing

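With the sort as a replicate block, 1, 6 and 6 member genes were called in DN3 against DN2, DN4 against DN3 and DN4 against DN2, beside 0, 5 and 3 without it, and 2 member probe sets were called in DN3 against DN2. The block moved the counts over all genes to 2292 and 3363 in DN3 against DN2 and DN4 against DN3, beside 1236 and 1795. Together with the Gapdh ratio as a covariate it gave 397 and 2719, and 0, 5 and 4 members in the 3 comparisons. The block changed the calls of E2f7 in DN3 against DN2, of E2f8 in DN4 against DN3 and of E2f1, E2f6 and E2f8 in DN4 against DN2, and no other call of a member gene.

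Median centring called 0 members in DN4 against DN3, and 1 and 2 member probe sets in DN3 against DN2 and DN4 against DN3. No normalization between arrays called 0 members in DN4 against DN3 and 0 in DN4 against DN2, 3 and 0 member probe sets in these comparisons, and 604 and 2879 genes over the whole table in DN3 against DN2 and DN4 against DN3. In DN3 against DN2, the split over all genes was 688 higher and 569 lower with median centring, beside 526 and 710. Without the filter on dim genes, 3 members, 3 member probe sets and 1130 genes were called in DN4 against DN3. A filter at the 75th percentile kept 8 members and called 3 there; E2f4 and E2f7, called in the main fit, were too dim to be tested.

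The mean of all probe sets called 6 members in DN4 against DN2 and turned E2f3 from -0.07 to 0.35, and every probe set by itself gave 6078 calls there. The smaller fits of sorts 1 and 2 called 314, 444 and 2153 genes in DN3 against DN2, DN4 against DN3 and DN4 against DN2, those of sorts 3 and 4 called 526, 538 and 2490, and 1 and 2 members in DN4 against DN3. Without the 3 arrays of lowest mean signal, 3 members and 881 genes were called in DN4 against DN3, and 1 member and 2365 genes in DN4 against DN2. Leaving out each array in turn gave 0 members in DN3 against DN2, 2 to 5 in DN4 against DN3 (2 without DN3 array 2 or DN4 array 1, 3 without DN4 array 2) and 3 to 4 in DN4 against DN2. The counts over all genes were then 950 to 1255, 1117 to 1917 (1117 without DN3 array 2) and 3202 to 3814. The cause of these changes was not tested beyond the fewer arrays and genes that the smaller fits and filters use.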
